A study of Astyanax mexicanus with 22 samples.

Results

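The insulin and insulin-like growth factor (IGF) receptors and the insulin receptor substrates were followed in bulk RNA sequencing of ovaries, taken from the right side, in the Mexican tetra Astyanax mexicanus. River-dwelling surface fish of this species have eyes, and the cavefish have lost them. A gene was included when its symbol was that of an insulin receptor (insr), an IGF1 or IGF2 receptor, or an insulin receptor substrate (irs1, irs2 or irs4), and when it had at least 10 counts in at least 2 libraries. Of 27420 genes in the table, 16752 carried a symbol and 8 met the rule: insra, insrb, igf1ra, igf1rb, igf2r, IRS1, IRS2 and irs2a. All 8 also passed the filter on low counts that left 15607 genes to test. No symbol matched irs4, and IRS2 is a row separate from irs2a, written here as the table writes them.

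All fish are labelled wild type. Per the labels, the starved groups were 4 Pachon_old_starved, 2 Pachon_new_starved, 2 Surface_fish_old_starved and 2 Surface_fish_new_starved libraries, and the non-treated controls were 4 Pachon_old_ctrl, 2 Pachon_new_ctrl, 4 Surface_fish_old_ctrl and 2 Surface_fish_new_ctrl libraries, 22 in all. Pachón is the cave from which the cavefish come. Old and new name 2 batches. The design text names fish about 500 and 1200 days old, counted from fertilization, but does not tie an age to a batch, so age and batch cannot be told apart. How long the fish were starved is not stated there. The libraries held 4860620 to 7513790 counts in genes. The labels do not say whether each replicate is another fish, and p-values then measure the spread between these libraries, which may be technical. Ovary transcripts were present throughout: the 13 oocyte genes checked, among them gdf9, bmp15 and zar1, had counts in every library. Granulosa and follicle genes were scarce, with 330 counts of fshr and 167 of cyp19a1a over all 22 libraries. In bulk tissue, fewer cells of a type and less RNA per cell cannot be told apart.

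Insulin and the IGFs act through receptor tyrosine kinases of the cell surface, the insulin receptor and the IGF1 receptor, of which teleost fish usually keep several copies. The active receptor phosphorylates the insulin receptor substrates, docking proteins that recruit phosphoinositide 3-kinase and so switch on AKT and mTOR and hold back the FOXO transcription factors. The IGF2 receptor is of another kind: in mammals it carries lysosomal enzymes and removes IGF2 without passing on a growth signal. In the fish ovary, IGF signalling is known for its part in follicle growth and oocyte maturation, and Pachón cavefish are known for insulin resistance and for a coding change in insra, which counts per gene do not show.

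The substrate gene irs2a was low in Pachón ovaries and high and steady in surface ovaries. The receptor gene igf1ra and the substrate gene IRS2 were called lower in starved than in control surface fish. The call of IRS2 was lost in 15 of the 22 fits that left out 1 library, and that of igf1ra in 3. Neither was called by limma-voom or in a fit to surface libraries alone, where 0 genes of the whole table were called. In surface fish igf1ra also differed between batches. It was called higher in Pachón than in surface fish, although the morphs overlapped in old controls. Of the other 5 genes, insra was called between batches in surface controls and IRS1 between control morphs, while insrb, igf1rb and igf2r were called in none of the 7 main comparisons. The values of these 5 stayed under 1 on the log2 scale in each of these 7, and those of igf2r reached at most 0.13. The starvation change of igf1ra, averaged over the batches, also stayed under 1.

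**Figure D1:**
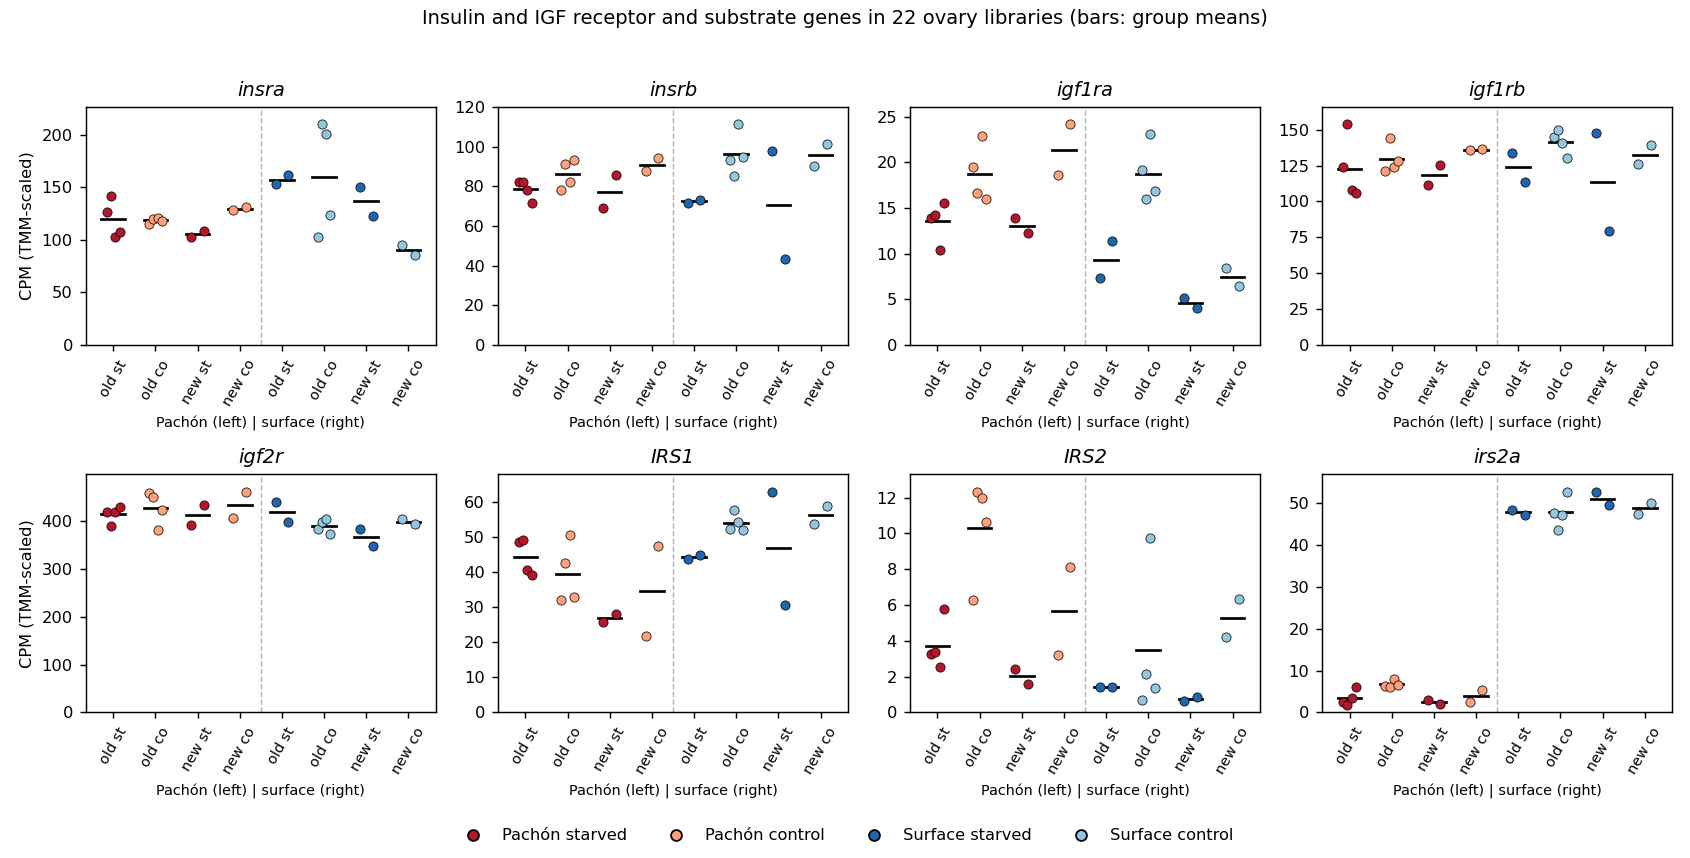
CPM (counts in 1e+06, scaled by TMM factors) of the 8 genes in each of 22 libraries, 1 point per library, with the mean of each of the 8 groups as a bar and a linear axis from 0 for each gene (st, starved; co, control). For irs2a all 12 Pachón libraries lie at 1.69 to 8.03 CPM, below all 10 surface libraries at 43.7 to 52.8 CPM.

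Levels are given in CPM, counts in 1e+06 counts of tested genes after TMM scaling, and are compared between libraries only, since gene lengths were not used. Differences are log2 changes ± SE from edgeR's quasi-likelihood test, averaged over the batches unless a batch is named. A change was called at a Benjamini-Hochberg adjusted p under 0.05 over all genes tested.

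Among the receptors, igf1ra, a receptor for IGF1, was the one called for starvation, and it was lower in starved surface fish. In surface fish of the old batch, starved libraries had 7.34 and 11.4 CPM, against 16.0, 16.9, 19.2 and 23.1 CPM in controls. In the new batch, starved surface libraries had 4.08 and 5.15 CPM, against 6.48 and 8.46 CPM in controls. Within each batch, every starved surface library was below every control. In the old batch insrb and IRS1 lay below too. In the new batch, with 2 against 2 libraries, IRS2 and igf2r lay below and insra above. For separation within a batch the share over all genes was not computed, so that of igf1ra has no background beside it. The averaged change was -0.84 ± 0.19 (adjusted p = 0.0138), a level 1.79-fold lower in starved fish, and it was called without most single libraries but not without Surface_fish_old_starved 1 (adjusted p = 0.0760), Surface_fish_new_ctrl 1 (0.0600) or Surface_fish_new_starved 2 (0.0695). The change was -1.005 ± 0.25 in the old batch (adjusted p = 0.0877) and -0.68 ± 0.30 in the new batch (adjusted p = 0.193), and the difference between the batches' responses was -0.32 ± 0.39 (adjusted p = 0.844).

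In Pachón fish, starved libraries had 10.4 to 15.6 CPM of igf1ra (median 13.9, n = 6), against 16.0 to 24.2 CPM in controls (median 19.0, n = 6). No starved library reached any control. Of the 8 genes, igf1ra alone separated this way in Pachón fish, where 0.602% of all genes tested did, 0.378% with the starved libraries below. The lowest control was 1.03 times the highest starved library, and the change of -0.59 ± 0.17 had an unadjusted p of 0.00217 and an adjusted p of 0.587. By adjusted p, 0% of genes were called for starvation in Pachón fish, where the smallest adjusted p of any gene was 0.326, and 7.32% had an unadjusted p under 0.05. DESeq2 called 9 genes there and voom 0, none of them among the 8. The responses of the morphs differed by 0.26 ± 0.25 (Pachón minus surface, adjusted p = 0.823).

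Between morphs, igf1ra depended on the batch. Controls of the new batch had 18.6 and 24.2 CPM in Pachón fish, against 6.48 and 8.46 CPM in surface fish. Controls of the old batch overlapped, with 16.0 to 22.8 CPM in Pachón fish and 16.0 to 23.1 CPM in surface fish (n = 4 each). The averaged difference of 0.76 ± 0.17 in controls (adjusted p = 0.00192) thus joined 1.52 ± 0.28 in the new batch (adjusted p = 0.00129) with -0.00 ± 0.19 in the old batch (adjusted p = 0.997). In starved fish it was 1.01 ± 0.19 (adjusted p = 0.000469), with 1.49 ± 0.30 in the new batch (adjusted p = 0.00188) and 0.54 ± 0.24 in the old batch (adjusted p = 0.108). Seen from the other side, igf1ra in surface controls was higher in the old than in the new batch by 1.33 ± 0.25 (adjusted p = 0.00373), a comparison that uses the same control libraries. The same difference was -0.19 ± 0.23 in Pachón controls (adjusted p = 1), where 0.032% of genes were called. The test of the difference between those values gave -1.52 ± 0.34 (Pachón minus surface, adjusted p = 0.0354), in a comparison where 1.02% of genes were called, 0.436% in this direction. That last call was lost in 10 of the 22 fits that left out 1 library, most of all without Pachon_new_ctrl 2 (adjusted p = 0.190) and Surface_fish_new_ctrl 2 (0.173). Without Surface_fish_new_ctrl 2, the batch difference in surface controls was 1.14 (adjusted p = 0.0737).

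The 5 genes whose profile over the 22 libraries was closest to that of igf1ra, by the root-mean-square difference of centred log2 CPM among 11364 candidates, were sertad3 (0.293), pank1b (0.325), a gene known by a clone name (0.344), WDR47 (0.353) and RPS6KA5 (0.357). For scale, igf1ra itself had an SD of 0.692 on that log2 scale. These genes were chosen on the same libraries, so their differences are a description: in surface controls of the old against the new batch, that of pank1b, which encodes a pantothenate kinase of coenzyme A synthesis, was 1.58 ± 0.20.

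The insulin receptor genes moved less. The level of insra in surface controls was 103, 123.97, 201 and 209.8 CPM in the old batch, against 85.5 and 94.7 CPM in the new batch. The old libraries spread 2.04-fold but all lay above the new ones, and the difference was 0.82 ± 0.21 (adjusted p = 0.0250). It was not called without Surface_fish_old_ctrl 2 (adjusted p = 0.0648) or 3 (0.0502), or without Surface_fish_new_ctrl 1 (0.122) or 2 (0.198). In Pachón fish insra was even, at 103 to 141 CPM in 6 starved libraries and 115 to 131 CPM in 6 controls. Its difference between morphs was -0.38 ± 0.16 in starved fish (adjusted p = 0.0646) and 0.05 ± 0.15 in controls (adjusted p = 0.827). Together with igf1ra it was 1 of 2 members called between batches in surface controls, both higher in the old batch, where 7.36% of all genes were called and 3% were called higher. Both also did not overlap between the batches, as 33.6% of all genes did not in this comparison of 4 with 2 libraries.

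For insrb, the other insulin receptor gene, starved surface libraries had 71.9 and 72.9 CPM in the old batch and 97.7 and 43.6 CPM in the new batch, against 85.1 to 111 CPM in 6 controls. Both starved libraries of the old batch were below all controls, while in the new batch 1 lay among the controls and 1, at 43.6 CPM, lay below them. That low library, Surface_fish_new_starved 2, summed to 13128 CPM over 13 oocyte genes, against 5491 to 9769 CPM in the other libraries. Its TMM factor, 0.833, was the lowest, and the part of this in its low insrb was not tested. The starvation change of insrb in surface fish, -0.42 ± 0.15, had an adjusted p of 0.0894. This value turned on the new starved libraries: without Surface_fish_new_starved 2, the low one, it was -0.18 (adjusted p = 0.355). Without Surface_fish_new_starved 1 it was -0.77 (adjusted p = 8.99e-05), and igf1rb (-0.46, adjusted p = 0.00578) and IRS1 (-0.58, adjusted p = 0.0329) were then called lower as well. Over all genes, the calls for starvation in surface fish numbered 1216 with every library, 4342 without Surface_fish_new_starved 1 and 420 without Surface_fish_new_starved 2.

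The second IGF1 receptor gene, igf1rb, had 79.4 to 154 CPM over all libraries and was called in none of the 7 comparisons with every library included. Its changes ran from -0.20 ± 0.14 in starved surface fish (adjusted p = 0.357) to 0.09 ± 0.18 between batches in surface controls (adjusted p = 0.820). The pair igf1ra and igf1rb thus differed in what was called. Whether the 2 copies share reads was not tested. The IGF2 receptor gene, igf2r, was the steadiest of the 8, at 390.5 to 433 CPM in starved Pachón, 381 to 461 CPM in control Pachón, 348 to 439 CPM in starved surface and 374 to 405 CPM in control surface fish. Its coefficient of variation over all 22 libraries was 6.99%, and the difference nearest to a call was 0.13 ± 0.06 between morphs in controls (adjusted p = 0.124). Summed over insra, insrb, igf1ra and igf1rb, receptor transcripts were 328 ± 37.2 CPM in starved Pachón (n = 6), 361 ± 18.4 CPM in control Pachón (n = 6), 344 ± 65.5 CPM in starved surface (n = 4) and 386 ± 66.4 CPM in control surface fish (n = 6, SD for all), so the groups overlapped.

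**Figure D2:**
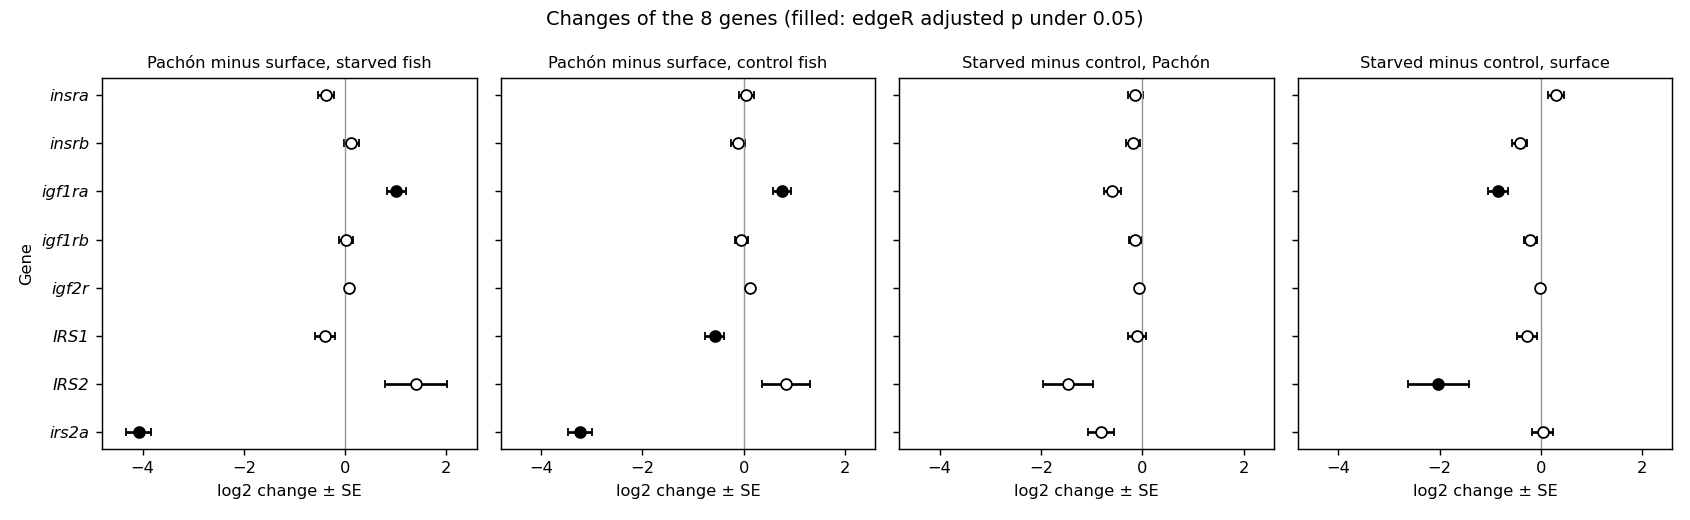
Log2 change ± SE of each of the 8 genes (rows) in 4 comparisons, from edgeR's fit to all 22 libraries, with filled points where the adjusted p is under 0.05. The irs2a points lie at -4.08 and -3.23 for Pachón against surface fish and at 0.03 for starvation in surface fish.

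The substrate gene irs2a, whose mammalian counterpart relays insulin signals in liver, pancreas and ovary, set the morphs apart. Starved Pachón libraries had 2.57, 1.69, 3.54 and 6.15 CPM in the old batch and 2.86 and 1.93 CPM in the new batch. Control Pachón libraries had 6.29, 5.99, 8.03 and 6.52 CPM in the old batch and 2.51 and 5.41 CPM in the new batch. Surface libraries had 48.4, 47.4, 52.8 and 49.6 CPM when starved and 43.7 to 52.8 CPM as controls (median 47.6, n = 6). The highest Pachón library was thus 5.44 times below the lowest surface library. In raw counts, Pachón libraries held 12 to 47 and surface libraries 231 to 336.

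The difference of irs2a, Pachón minus surface, was -4.08 ± 0.25 in starved fish (adjusted p = 9.83e-10), a level 16.9-fold lower in Pachón fish. In controls it was -3.23 ± 0.23 (adjusted p = 5.27e-09), or 9.38-fold lower. The difference held within batches, at -2.83 and -3.63 in old and new controls and at -3.76 and -4.40 in old and new starved fish, each called. Among all genes tested, 269 (1.72%) had a lower log2 change in Pachón controls and 135 (0.865%) in starved Pachón fish. Omitting any 1 of the 22 libraries kept both calls, with -3.55 to -3.00 in controls, and so did the 7 other settings tried. Of the 8 genes, 1 was called higher (igf1ra) and 2 lower (irs2a and IRS1) in Pachón controls, where the calls covered 34.6% of all genes, 16.6% higher and 18% lower. Among starved fish, 1 was higher (igf1ra) and 1 lower (irs2a), where 36% were called, 18.3% higher and 17.7% lower. A share of that size among the 8 is near the background. Complete separation of all Pachón from all surface libraries was seen for irs2a alone of the 8 and for 8.49% of all genes, 4.36% with Pachón below and 4.13% with Pachón above.

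Within surface fish irs2a hardly varied. Its coefficient of variation over the 10 surface libraries was 5.63%, and 0.772% of 14771 genes compared had a lower one. Its starvation difference there was 0.03 ± 0.21 (adjusted p = 0.944), and the batch difference in controls was -0.03 ± 0.27 (adjusted p = 0.970). In Pachón fish the starved median was 2.72 CPM, against 6.14 CPM in controls, with overlap. That change of -0.82 ± 0.26 had an unadjusted p of 0.00589 and an adjusted p of 0.617. The difference between the morphs' responses was -0.85 ± 0.33 (unadjusted p = 0.0197, adjusted p = 0.417), in a comparison where 0.0256% of genes were called and none of the 8. At 12 to 47 counts per library, the Pachón values of irs2a also carry more counting error than the surface values.

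In the RefSeq table of assembly AstMex3_surface, 6 named and tested genes lie within 10 genes of irs2a. The nearest, lig4 (DNA ligase IV) on one side and cars2 (a mitochondrial cysteinyl-tRNA synthetase) on the other, differed between the morphs in controls by 0.07 ± 0.07 (adjusted p = 0.490) and -0.07 ± 0.13 (adjusted p = 0.711). Further out, cbsa (cystathionine beta-synthase) was higher in Pachón controls by 1.57 ± 0.21 (adjusted p = 1.76e-05). On the other side, chst10 (a carbohydrate sulfotransferase) was lower in Pachón fish, at -1.12 ± 0.31 in starved fish (adjusted p = 0.00882) and -1.26 ± 0.29 in controls (adjusted p = 0.00254). The genes ankrd10a (-0.39 ± 0.16, adjusted p = 0.0697) and cckbra (-0.83 ± 0.44, adjusted p = 0.153) were not called in controls. In that comparison 34.6% of all genes were called. Since the build behind the counts is not known here, the table served for gene order only. Whether reads of the Pachón allele were lost in alignment to the reference was not tested.

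The 5 genes whose profile was closest to that of irs2a, by the same measure and among the same 11364 candidates, were ANO5 (0.482), plbd1a (0.491), elovl4a (0.644), MAP3K6 (0.651) and fgd6 (0.669), against an SD of 1.89 for irs2a. As for irs2a, the likeness rests on the contrast of 12 Pachón with 10 surface libraries. In controls their differences between morphs ran from -4.47 ± 0.27 for fgd6 to -2.44 ± 0.26 for ANO5.

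The substrate gene IRS1, a main docking protein of the insulin receptor in mammalian muscle and fat, was lower in Pachón controls. It had 32.0, 33.0, 42.5 and 50.5 CPM in old and 21.8 and 47.3 CPM in new Pachón controls, against 51.9 to 58.6 CPM in 6 surface controls. The 6 surface libraries were tight and lay above all Pachón libraries, the nearest by a factor of 1.03. The difference was -0.58 ± 0.18 (adjusted p = 0.0207), and it was not called without Surface_fish_new_ctrl 2 (-0.54, adjusted p = 0.0710) or Pachon_new_ctrl 1 (-0.35, adjusted p = 0.169). In starved fish it was -0.41 ± 0.20 (adjusted p = 0.119), with -0.81 ± 0.30 among new fish (adjusted p = 0.0740) and 0.00 ± 0.26 among old fish (adjusted p = 0.996). With irs2a and IRS1, 2 of the 8 genes lay wholly below in Pachón controls, as did 9.62% of all genes.

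The 3 substrate genes together gave 44.7 ± 10.9 CPM in starved Pachón (n = 6), 52.4 ± 15.2 CPM in control Pachón (n = 6), 96.1 ± 14.6 CPM in starved surface (n = 4) and 107 ± 5.31 CPM in control surface fish (n = 6, SD for all). The share of irs2a in that sum had a median of 6.87% in starved Pachón, 10.6% in control Pachón, 51.2% in starved surface and 44.4% in control surface fish. These shares are not corrected for gene length. They compare the makeup of the substrate reads between libraries.

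IRS2, a second row of the irs2 type, had 4 to 74 counts per library. Starved surface libraries had 1.44, 1.42, 0.644 and 0.859 CPM (4 to 10 counts), against 0.698, 2.13, 9.73 and 1.36 CPM in old and 4.23 and 6.32 CPM in new controls. In the old batch the starved values fell among the controls, and in the new batch both lay below, the nearest control being 4.93 times the highest starved library. The averaged change was -2.02 ± 0.60 (adjusted p = 0.0451), 4.07-fold, with -1.25 ± 0.76 in the old batch (adjusted p = 0.499) and -2.80 ± 0.92 in the new batch (adjusted p = 0.0873). This call was lost in 15 of the 22 fits that left out 1 library. Without Surface_fish_old_ctrl 3, the library at 9.73 CPM, the change was -1.39 (adjusted p = 0.0591).

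In Pachón fish IRS2 had 1.61 to 5.75 CPM when starved (median 2.89, n = 6), against 3.22 to 12.3 CPM in controls (median 9.36, n = 6). Within each batch every starved Pachón library lay below every control. In the old batch igf1ra did so too. In the new batch, with 2 against 2 libraries, insra, insrb, igf1ra and igf1rb lay below as well. The share over all genes was not computed within batches, so that of IRS2 has no background beside it. The change was -1.47 ± 0.49 (unadjusted p = 0.00725, adjusted p = 0.617), at -1.45 ± 0.54 among old and -1.48 ± 0.81 among new fish. With igf1ra and irs2a, IRS2 was 1 of 3 of the 8 genes with an unadjusted p under 0.05 there. The responses of the morphs differed by 0.56 ± 0.76 (Pachón minus surface, adjusted p = 0.879). Between morphs, the difference of IRS2 was 1.40 ± 0.61 in starved fish (adjusted p = 0.0820), where the Pachón libraries all lay above the surface libraries (1.61 to 5.75 CPM against 0.644 to 1.44 CPM), as 11.5% of all genes did. In controls the difference was 0.84 ± 0.47 (adjusted p = 0.177), and 1.47 without Surface_fish_old_ctrl 3 (adjusted p = 0.00273).

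In starved surface fish, then, 2 of the 8 genes were called lower (igf1ra and IRS2) and 0 higher, where 7.79% of all genes were called, 2.42% higher and 5.37% lower. The median change of the 8 was -0.24, against -0.01 over all genes. No member separated starved from control surface libraries over both batches, as 4.54% of all genes did, 1.82% with the starved libraries above. Limma-voom with sample weights and an edgeR fit to the surface libraries alone called 0 genes of the whole table for this comparison.

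Markers of the somatic cells of the follicle moved with these falls. Of 14 granulosa and follicle genes in the table, 9 were tested, and 6 were called lower and 0 higher in starved surface fish (median change -2.33). The lower count was 4 to 6 without 1 library, and 5.37% of all genes were called lower in this comparison. Their summed level was 7.92 to 18.7 CPM in starved surface fish, against 12.0 to 56.5 CPM in surface controls, and 14.8 to 26.3 CPM in starved Pachón fish, against 24.9 to 44.3 CPM in Pachón controls. The library with the high IRS2 value, Surface_fish_old_ctrl 3, summed to 50.4 CPM, against 12.0 to 23.8 CPM in the other old surface controls. Of the defining markers, fshr, foxl2b and cyp19a1a had counts in every library, while foxl2a had none in 13 of 22. Among 15 stroma and matrix genes in the table, fn1a held 45583 counts over all libraries and col1a1a, the next, 2950. Their summed levels thus mostly follow fn1a. Stroma and matrix genes were lower in 10 of 13 tested (median change -2.05), and in 6 without Surface_fish_new_ctrl 2 or Surface_fish_old_starved 1, at a summed 313 to 495 CPM in starved and 369 to 767 CPM in control surface fish. Of 8 smooth muscle genes 4 were called lower and 1 higher, of 15 macrophage genes 4 lower and 0 higher (2 lower without either Surface_fish_old_starved library and 6 without Surface_fish_new_starved 1), and of 2 theca genes both lower (1 without Surface_fish_new_ctrl 2 or either Surface_fish_old_starved library). Of 13 oocyte genes 2 were called higher and 0 lower (median 0.37), with the highest oocyte sum in Surface_fish_new_starved 2. In the fits without 1 library, 0 to 2 endothelium genes were called lower and 0 higher. Endothelium genes summed to 18.0 to 44.7 CPM in starved and 13.5 to 50.5 CPM in control surface fish. In those fits 0 adipocyte and 0 erythrocyte genes were called, and 0 to 2 hepatocyte genes were higher and 0 to 1 lower. The part of these cells in the falls of igf1ra and IRS2 was not tested. For the batch difference the markers went the other way: in surface controls of the old batch, where igf1ra and insra were higher, 9 of 13 stroma genes and 1 of 9 granulosa genes were called lower and 0 higher, where 4.36% of all genes were called lower. Without Surface_fish_new_ctrl 2 the stroma count was 1, and without Surface_fish_new_ctrl 1 it was 6. Between starved morphs, where igf1ra was higher in Pachón fish, 7 of 13 stroma, 5 of 9 granulosa, 6 of 8 smooth muscle, 3 of 15 macrophage and 2 of 2 theca genes were called higher in Pachón fish, beside 18.3% of all genes, and 1 stroma, 1 granulosa and 1 macrophage gene lower. Granulosa genes summed to 14.8 to 26.3 CPM in starved Pachón and 7.92 to 18.7 CPM in starved surface fish, and stroma genes to 308 to 598 CPM in starved Pachón and 313 to 495 CPM in starved surface fish. Between control morphs igf1ra was also called higher in Pachón fish. There 0 granulosa and 0 theca genes were called higher in any fit without 1 library, and at most 1 stroma and 2 smooth muscle genes. In new controls, where igf1ra differed between morphs, granulosa genes summed to 24.9 to 41.0 CPM in Pachón and 37.6 to 56.5 CPM in surface fish. Stroma genes summed there to 356 to 462 CPM and 734 to 767 CPM. The part of these cells in the differences of igf1ra was not tested.

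**Figure D3:**
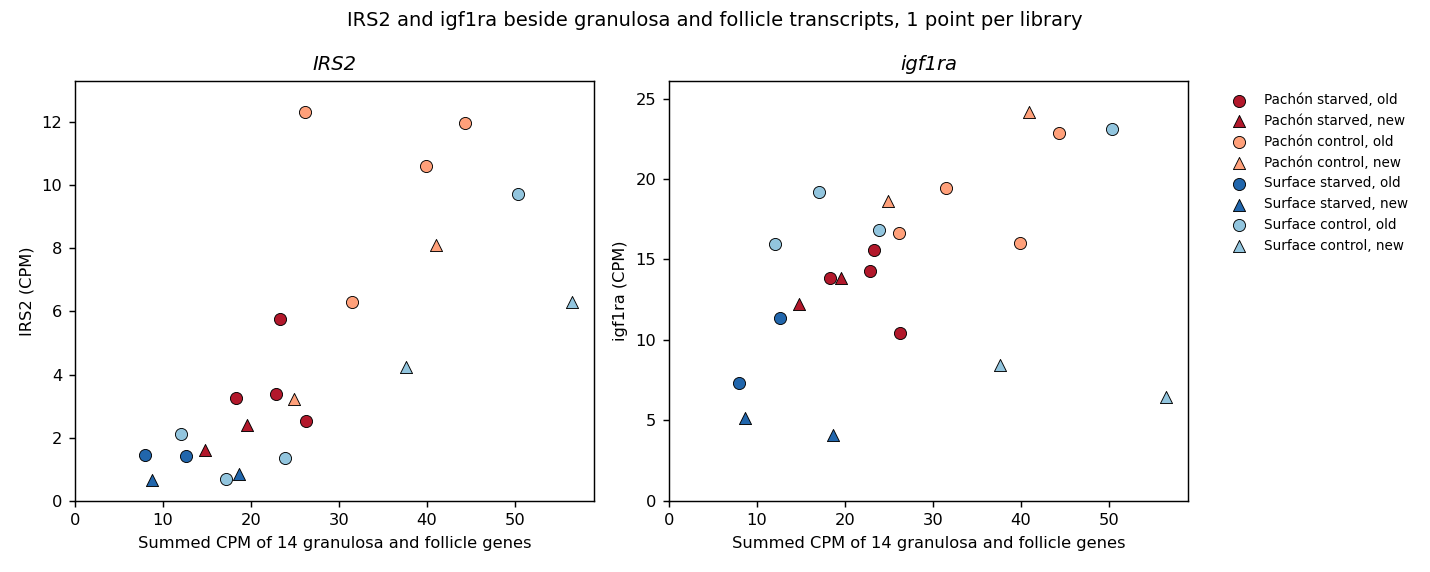
CPM of IRS2 (left) and igf1ra (right) in each of the 22 libraries against the summed CPM of 14 granulosa and follicle genes, with colours for morph and treatment and circles and triangles for the old and new batch. Starved surface libraries lie at 7.92 to 18.7 CPM on the horizontal axis. The new surface controls lie at 37.6 and 56.5 CPM, with 8.46 and 6.48 CPM of igf1ra in that order.

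Upstream of the receptors, 5 ligand genes were in the table and 4 were tested. The gene igf1, which encodes the main circulating ligand of the IGF1 receptor, had 0 counts in all 22 libraries. The insulin gene ins had 27, 5, 33 and 21 counts in starved surface libraries, against 13 counts in all in 6 surface controls, 10 in 6 starved Pachón and 2 in 6 control Pachón libraries. Starved surface libraries had 0.789 to 5.31 CPM, against 0 to 1.07 CPM in surface controls, so the groups overlapped through Surface_fish_old_starved 2. The rise of 3.88 ± 0.77 (adjusted p = 0.00688) was not called without Surface_fish_old_starved 1 (3.10, adjusted p = 0.0631) or Surface_fish_new_ctrl 2 (3.44, adjusted p = 0.0551). Other transcripts of the endocrine pancreas (gcga, gcgb, sst1.1, pdx1, nkx6.1 and pcsk2, chosen after the values were seen) summed to 9 counts in starved and 4 counts in control surface libraries, and to 17 counts in starved and 13 counts in control Pachón libraries. The ligand gene igf2b fell, with 3 counts over 4 starved surface libraries and 45 over 6 controls, at -4.09 ± 1.02 (adjusted p = 0.0220). That call was lost without either Surface_fish_old_starved library, Surface_fish_new_ctrl 2 or Surface_fish_new_starved 2 (adjusted p up to 0.0808). The gonadal ligand gene igf3, known in teleosts for its action on the follicle, was higher in Pachón than in surface fish, at 2.53 ± 0.65 in starved fish (adjusted p = 0.00513) and 1.42 ± 0.54 in controls (adjusted p = 0.0476), the control value being lost in 12 of 22 fits without 1 library.

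Over 7 pathway lists, ligands included, 106 genes were in the table and 96 were tested. For starvation in surface fish, 4 were called higher and 9 lower, with a median change of -0.05, beside the 2.42% of all genes called higher and 5.37% called lower. Without Surface_fish_new_starved 1 the counts were 11 higher and 24 lower, without Surface_fish_new_starved 2 or Surface_fish_old_starved 1 they were 2 and 1, without Surface_fish_new_ctrl 2 they were 0 and 4, and without Surface_fish_new_ctrl 1 or Surface_fish_old_starved 2 they were 2 higher with 6 and 7 lower. In Pachón fish edgeR called 0 in either direction, as it did over all genes. Between morphs, 18 were higher and 12 lower in Pachón controls, and 19 higher and 17 lower in starved Pachón fish, with medians of -0.01 and 0.04. The control counts were 11 higher and 7 lower without Pachon_new_ctrl 1, and 15 higher and 6 lower without Surface_fish_new_ctrl 2. The starved counts were 37 higher and 18 lower without Surface_fish_new_starved 1, and 17 higher and 11 lower without Pachon_new_starved 1. These morph counts stand beside the 34.6% and 36% of all genes called in the same comparisons.

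In starved surface fish, 3 of the 32 adaptors tested were called lower and 0 higher, against the same 5.37% and 2.42% of all genes, and the other calls were spread over the lists. The adaptor counts were 7 lower and 2 higher without Surface_fish_new_starved 1, and 1 lower without Surface_fish_new_starved 2 or Surface_fish_old_starved 1. CBLB, a ubiquitin ligase of activated receptors, had 17.0 to 40.9 CPM, against 46.0 to 69.8 CPM in controls, with no overlap (-1.06 ± 0.21, adjusted p = 0.00595). Starved libraries lay wholly below controls for 2.72% of all genes. CBLB was called in all 22 fits that left out 1 library, but not by voom (adjusted p = 0.123) or with surface libraries alone (0.0901). SHC1, the adaptor that links receptors to RAS, had 4.51 to 11.4 CPM, against 8.98 to 21.4 CPM (-1.11 ± 0.25, adjusted p = 0.0121). DOK4, a docking protein related to the substrates, had 1.07 to 1.58 CPM, against 2.28 to 5.53 CPM (-1.47 ± 0.34, adjusted p = 0.0147). The transcription factor gene foxo1a had 0.859 to 1.58 CPM, against 2.44 to 4.39 CPM (-1.48 ± 0.36, adjusted p = 0.0181), while its relative foxo3a changed by 0.54 ± 0.14 (adjusted p = 0.0263). MAPKAP1, a subunit of mTOR complex 2, changed by -1.07 ± 0.26 (adjusted p = 0.0175) and AKT1 by 0.30 ± 0.07 (adjusted p = 0.0173). Like CBLB, the genes DOK4, foxo1a and MAPKAP1 (3.01 to 7.40 CPM, against 8.85 to 15.7 CPM) did not overlap. All were named for their small p. The symbol AKT1 stands on 2 rows. Values here are those of the row with a mean of 126 CPM in surface controls, the other having 3.43 CPM. Voom and the fit to surface libraries alone called 0 genes of the whole table here, so they kept none of these calls either. Of these genes, SHC1 lost its call without 2 of the 22 libraries in turn, DOK4, foxo3a, MAPKAP1 and AKT1 without 3 and foxo1a without 4, the largest adjusted p being 0.155. Without Surface_fish_old_starved 1, SHC1 had an adjusted p of 0.0699, MAPKAP1 0.0864, AKT1 0.101, DOK4 0.0612 and foxo1a 0.0534, and without Surface_fish_new_ctrl 2 foxo3a had 0.155.

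Between morphs, genes of the pathway lists moved in both directions. The kinase gene akt3a had 12.7 to 17.3 CPM in Pachón controls, against 0.810 to 8.68 CPM in surface controls (2.42 ± 0.25, adjusted p = 6.01e-07). In surface controls akt3a was also called higher in the old than in the new batch, at 2.22 to 3.12 without 1 library. Its averaged difference between morphs thus joins unlike batches. The adaptor gene grb2a had 3.72 to 8.12 CPM, against 0.572 to 2.96 CPM (1.69 ± 0.32, adjusted p = 0.000526), and SHC1 26.1 to 37.9 CPM, against 8.98 to 21.4 CPM (1.01 ± 0.22, adjusted p = 0.00131). The inositol phosphatase gene inpp5ka, whose mammalian counterpart dampens insulin signals, had 6.25 to 13.9 CPM in Pachón controls, against 15.2 to 72.9 CPM in surface controls (-2.15 ± 0.27, adjusted p = 6.70e-06). The groups did not overlap for any of these 4 genes, which were named for their small p, as 18.6% of all genes did not, 8.98% with Pachón above and 9.62% with Pachón below. The listed phosphoinositide 3-kinase gene pik3cg (0.77 ± 0.13, adjusted p = 0.000121) was higher in Pachón controls. Lower there were crkl (-0.61 ± 0.09, adjusted p = 4.98e-05) and mtor (-0.31 ± 0.07, adjusted p = 0.00286). Whether pik3cg acts with the substrates was not tested. All 7 of these calls between morphs were kept in the 22 fits that left out 1 library.

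**Figure D4:**
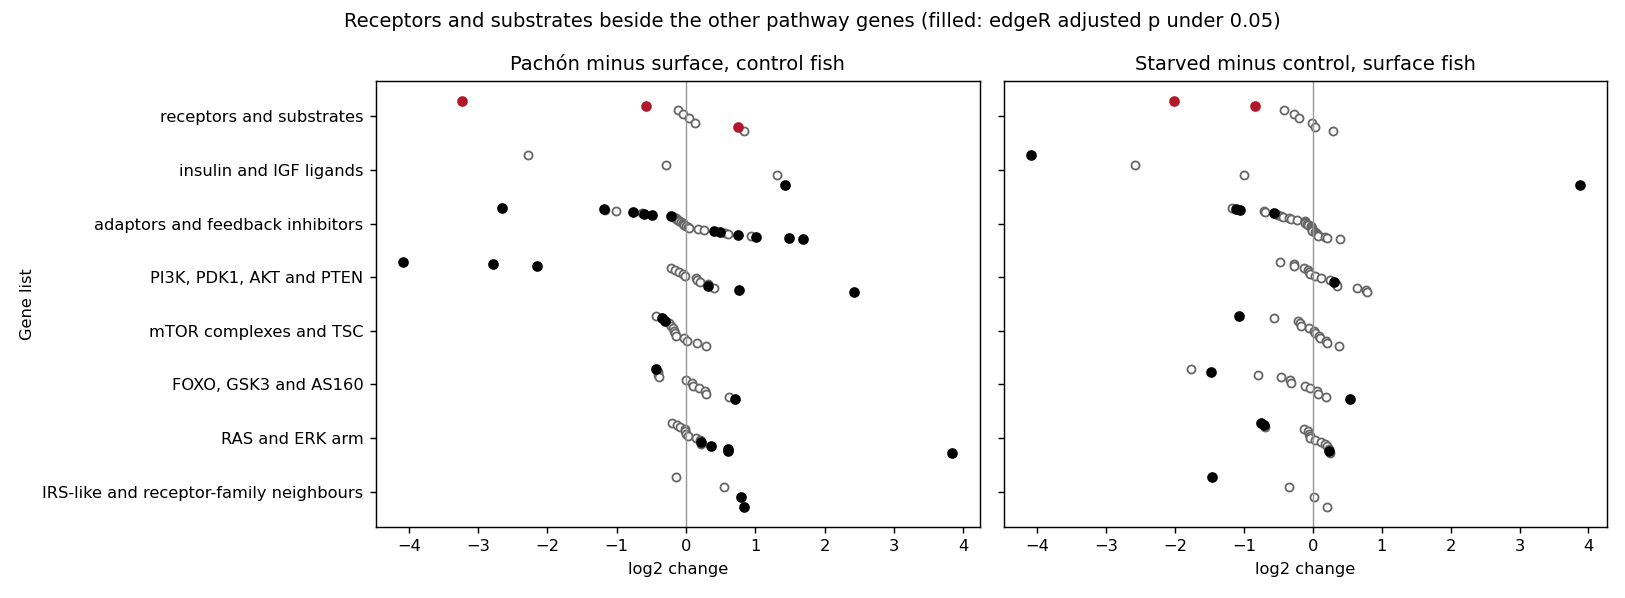
Log2 changes of the 8 receptor and substrate genes (top row) and of the 96 other tested pathway genes, by list, for Pachón minus surface fish in controls (left) and starved minus control in surface fish (right), with filled points where edgeR's adjusted p is under 0.05. The leftmost point of the top row is irs2a at -3.23 in the left panel and IRS2 at -2.02 in the right panel.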

How the data were processed

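Per the labels' protocols, total RNA of right-side ovaries was extracted with Trizol and made into directional libraries after ribosomal RNA depletion. STAR 2.7.10b and RSEM appear in the submitters' processing notes, with no roles. No source used here gives the genome build, annotation or strand option, so overlapping or antisense genes cannot be told apart. The authors deposited whole-number counts per gene, used in all main tests, with 4 rows that name no gene left out. They also deposited scaled CPM, treated as a signal (14814 genes, columns summing to 937145 to 1202370), a constant multiple of the counts in each library and used in 1 alternative.

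Symbols were taken from the deposited tables. The main analysis used edgeR 4.0.16 under R 4.3.3: filterByExpr (minimum count 10, minimum total 15), TMM factors of 0.833 to 1.07, and a robust quasi-likelihood fit of 8 group means to all 22 libraries with a spread pooled across groups. All tests were 2-sided, with Benjamini-Hochberg adjustment over 15607 genes, and the SE is the change over the square root of the F statistic. Of all reads listed per library, 55.4% to 67.6% were counted in genes and 7.91% to 17.6% were multimapping. Replicates differed beyond counting error (chi-square per degree of freedom 3.75 to 36.9 over 23 pairs), so no library was counted as another one sequenced again. Whether each replicate is another fish cannot be told from this, since separate preparations of the same ovary may differ too.

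The 8 genes, the lists and the tests were chosen with earlier results of these data known. Up to 4 genes with the smallest p were named per pathway list and comparison, and the 5 closest profiles for irs2a and igf1ra. Pathway and marker lists were counted, not tested. The pipeline was checked on simulated data. Alternatives were median-ratio size factors, DESeq2 1.42.0, no filter, limma 3.58.1 (voom with sample weights, and on log2 of the scaled CPM plus 1), only the libraries compared, a replicate block, and leaving out each library. For batch comparisons, the fit to the libraries compared held all libraries of that morph, starved ones included. The replicate block gave libraries with the same replicate number a shared term across all groups, a link that the labels do not state.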

Additional observations from a re-analysis of the deposited data

Results flagged for a closer look

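Surface_fish_old_ctrl 3 had 9.73 CPM of IRS2, against 0.698 to 2.13 CPM in the other 3 libraries of its group, and its gap to the nearest was 0.841 of the group's range, above Dixon's critical value. Over 24 pairs of a gene and a group of 4 libraries this was the single such value. Chance gives about 1 in 20 pairs, so a count of 1 is near what chance gives. The same library had 50.4 CPM of granulosa and follicle genes, against 12.0 to 23.8 CPM in the others. Their part in the IRS2 value was not tested.

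The difference of igf1ra between old and new controls was not the same in the morphs (-1.52, Pachón minus surface, edgeR adjusted p = 0.0354). Pachón controls had 18.7 ± 3.12 CPM in the old and 21.4 ± 3.91 CPM in the new batch, and surface controls 18.8 ± 3.17 CPM in the old and 7.47 ± 1.40 CPM in the new batch (SD, n = 4 old and 2 new in each morph). Stroma genes, most of whose counts are those of fn1a, summed to 369 to 582 CPM in old and 734 to 767 CPM in new surface controls. Their part was not tested.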

How the results depend on the processing

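The calls of irs2a and igf1ra between morphs were kept under all 7 other settings and all 22 fits without 1 library. Each of these fits averaged the batches. Within the old batch, the difference of igf1ra was called neither in controls nor in starved fish, while that of irs2a was called in both. Leaving out 1 library gave -3.55 to -3.00 and -4.31 to -3.95 for irs2a and 0.66 to 0.86 and 0.87 to 1.19 for igf1ra (controls, then starved fish).

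For starvation in surface fish, 2 genes called became 1 with no filter on low counts, 1 with the replicate block, 1 by limma on the scaled CPM, 0 by voom and 0 with surface libraries alone, and 0 to 4 without 1 library. IRS2 then changed by -1.99 with no filter (adjusted p = 0.0515), -1.64 with the replicate block (0.104), -1.53 by voom (0.478), -1.16 on the scaled CPM (0.0718) and -2.03 with surface libraries alone (0.191), and by -2.19 to -1.39 without 1 library. For igf1ra the values were -0.83 by voom (adjusted p = 0.290) and -0.85 with surface libraries alone (0.113), and -1.02 to -0.70 without 1 library. Over all genes, the calls were 1216, and 939 with no filter, 672 with the block, 1772 by DESeq2, 1292 on the scaled CPM, and 0 by voom and with surface libraries alone.

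With the libraries compared alone, 4 genes were called between starved morphs, insra (-0.38, adjusted p = 0.0250) and IRS2 (1.40, 0.0240) being added. In a fit to the surface libraries alone, starved ones included, 0 were called between batches in surface controls. There insra had 0.81 (adjusted p = 0.179) and igf1ra 1.32 (0.0662). The batch difference of igf1ra between morphs was -1.50 with no filter (0.0547) and -1.52 with the replicate block (0.0754), and -1.72 to -1.32 without 1 library. IRS2 between morphs was called by voom in controls (1.17, adjusted p = 0.0222) and by DESeq2 in starved fish (1.43, 0.0491). Leaving out 1 library gave 2 to 4 genes called between control morphs, 2 to 3 between starved morphs, 0 to 2 between batches in surface controls and 0 to 1 for the response difference. It gave -0.90 to -0.35 for IRS1 between control morphs, and 0.66 to 0.98 for insra and 1.14 to 1.53 for igf1ra between batches in surface controls.

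Every sign that turned was that of an uncalled value, and some of those were not small, such as the response difference of IRS2 (0.56) and the differences of IRS1. Signs turned for igf2r (0.0152 with no filter) for starvation in surface fish, IRS1 (0.0043 by voom) for starvation in Pachón fish, the response difference of IRS2 (-2e-04 on the scaled CPM), igf1rb between batches in Pachón controls (0.0259 with the block) and insrb between batches in surface controls (-0.0154 with median-ratio factors, -0.0215 with the block, -0.0152 by DESeq2, -0.018 by voom, -0.0095 on the scaled CPM and -0.0063 with surface libraries alone). Without 1 library the ranges that crossed 0 were -0.0448 to 0.0307 for igf2r in surface starvation, -0.33 to 0.23 for IRS1 in Pachón starvation, -0.12 to 0.32, -0.0553 to 0.50 and -0.0775 to 0.96 for the response differences of igf1rb, IRS1 and IRS2, -0.0315 to 0.13 for insra between control morphs, and -0.0946 to 0.47 and -0.15 to 0.28 for insrb and igf1rb between starved morphs. Between batches they were -0.0749 to 0.0822, -0.12 to 0.0039 and -0.0813 to 0.0105 for insrb, IRS1 and irs2a in surface controls, -0.37 to 0.0049, -0.11 to 0.0679 and -0.26 to 0.85 for igf1ra, igf2r and IRS1 in Pachón controls, and -0.0717 to 0.10 and -0.20 to 0.91 for igf2r and IRS1 in the difference of the morphs. The causes were not tested.

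Whether replicate numbers pair the libraries could not be decided by correlating deviations from group means. In groups of 2 libraries those deviations mirror each other, so the values repeat. Of 10 same-numbered pairs of starved and control libraries, 1 had a correlation over 0.1 (-0.177 to 0.115). IRS2 had 4 to 10 counts in starved surface libraries. How far counting error accounts for its spread was not tested.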
